A study of Mus musculus with 9 samples.

Results

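Cultured mouse germ cells at the pachytene and diplotene stages of meiosis were compared after treatment with octyl-L2HG plus oxamate or with oxamate alone, across all genes of the deposited count table. The comparison used 6 of the 9 libraries of the series, which were the 3 libraries of each of these groups, and left out the 6255 of 55471 listed genes that have no count value. The cells of one group were kept for 48 h in octyl-L2HG, at 0.3 mM, and oxamate, at 24 mM, and those of the other for the same time in oxamate at the same dose. Another 3 libraries came from untreated cells, whose culture time is not given. These libraries entered the filter on counts, the scaling and the estimate of the spread, and they show a level beside the treated groups. All groups shared the same origin. They were cultured cells sorted out of digested testes of C57Bl mice that carry a tdTomato transgene with germ cell specific expression, and the labels do not name its promoter. Oxamate was thus present on both sides of the comparison, and no group received octyl-L2HG without it. Whether libraries A, B and C were separate cultures or animals is not stated in the labels. The p-values therefore rest on a spread between libraries that may be purely technical.

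Pachytene spermatocytes have their homologous chromosomes joined along their length, transcribe many genes whose proteins are needed only later, and keep the X and Y chromosomes silent. Diplotene cells are about to divide, and the haploid round and elongating spermatids that follow switch on a new set of genes for the acrosome, the flagellum and the packing of DNA with protamines. L-2-hydroxyglutarate is a small acid that lactate dehydrogenases can make from 2-oxoglutarate and that inhibits dioxygenases needing 2-oxoglutarate, among them histone and DNA demethylases. Its octyl ester enters cells, and oxamate inhibits lactate dehydrogenase.

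Library totals were 46671048, 24849620 and 38691069 counts with octyl-L2HG plus oxamate, and 34758925, 28688933 and 37043834 counts with oxamate. Levels are given below as counts per 1000000 after trimmed-mean-of-M-values (TMM) scaling, written CPM, in the order of libraries A, B and C. Of 49216 genes with counts 18234 were tested with limma-voom, and a gene is said to have changed where its Benjamini-Hochberg adjusted p was under 0.05. On the first principal component of the 6 libraries, which held 73.2% of the variance, the octyl-L2HG libraries scored 48.5, 49.9 and 15.7 and the oxamate libraries -43.8, -32.1 and -38.2. Octyl-L2HG library C therefore lay between its own group and the oxamate libraries, and results that rest on it are also given without it.

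With octyl-L2HG plus oxamate, 2801 genes fell and 749 rose against oxamate, which is 15.4% and 4.11% of the tested genes and 19.5% together. The median fall was 3.29-fold and the median rise 1.33-fold. Of the genes that fell, 1064 did so at least 4-fold, 388 at least 8-fold and 85 at least 16-fold, whereas 591 of the genes that rose did so by less than 1.5-fold. The median log2 change over all tested genes was 0.07. Without octyl-L2HG library C, 2972 genes fell (16.5%) and 689 rose (3.83%).

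The number of rises depended more on the settings than the number of falls. It was 146 (0.825%) in a fit of the 6 libraries alone, 248 (1.38%) without octyl-L2HG library A, 448 (2.45%) without octyl-L2HG library B, 347 (1.92%) without oxamate library A and 451 (2.47%) without oxamate library B. Leaving out oxamate library C gave 3.01%. With the library letter as a replicate block 10.9% of the genes rose and 17.6% fell. Other settings gave rises of 5.26% with upper quartile scaling, 4.38% with median of ratios scaling, 2.2% with total count scaling, 0.851% with no filter on low counts, 2.5% with a filter of at least 1 CPM in 3 libraries, 3.63% with limma-trend and 4.1% with a quality weight per library. Falls made up 11.4% without octyl-L2HG library A and 15.1% without library B, 13.6%, 13.9% and 13.8% without oxamate library A, B or C, and 13.6% in the fit of 6 libraries. They made up 15.2%, 15.3% and 15.1% under the other scalings in the same order, 7.85% with no filter, where 37704 genes were tested, 15.8% with the stricter filter, 15.3% with limma-trend and 14.8% with quality weights.

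Genes that fell had fewer counts than those that rose. CPM is not divided by transcript length, so this compares depth of counting and not numbers of transcripts. The median over genes of the mean level in oxamate libraries was 3.01 CPM for the falls, 22.4 CPM for the rises and 5.25 CPM for all tested genes. Between 1 and 10 CPM, averaged over all 9 libraries, 19.9% of 6030 genes fell and 2.79% rose. At 100 CPM or more 2.71% of 2255 genes fell and 4.75% rose, so that rises outnumbered falls among the genes with the most counts. Small changes pass the threshold more easily at high counts, and the median rise was 1.33-fold. The average over 9 libraries includes the octyl-L2HG group, so a fall itself lowers a gene's average. Long noncoding RNAs fell more often than protein-coding genes, with 743 of 3175 (23.4%) against 1856 of 13526 (13.7%).

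The 12 named genes with the greatest loss in CPM included several that encode parts of sperm. Akap3 and Akap4 encode the scaffold proteins that hold protein kinase A in the fibrous sheath of the flagellum. Akap3 (chromosome 6, 126853098 to 126874308, GRCm38) was at 57.4, 61.9 and 117 CPM with octyl-L2HG plus oxamate and at 308, 254 and 277 CPM with oxamate, a 3.72-fold fall (log2 change -1.90, SE 0.21, limma adjusted p = 0.00011). Akap4, on the X chromosome, was at 28.6, 27.3 and 70.9 CPM with octyl-L2HG plus oxamate and at 244, 186 and 215 CPM with oxamate (5.53-fold lower, limma adjusted p = 0.00011). For both genes the groups did not overlap and library C was the highest of the octyl-L2HG libraries. Non-overlapping groups were seen for 33.1% of all tested genes in either direction.

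Smcp, which encodes a protein of the mitochondrial sheath around the flagellum, was at 23.7, 43.3 and 70.8 CPM with octyl-L2HG plus oxamate and at 164, 189 and 232 CPM with oxamate, a 4.69-fold fall. Pmfbp1, whose product joins the sperm head to the tail, was at 33.1, 43.3 and 76.7 CPM with octyl-L2HG plus oxamate against 158, 171 and 208 CPM with oxamate. Trim36, a ubiquitin ligase of the acrosome, was at 22.1, 25.6 and 56.7 CPM with octyl-L2HG plus oxamate against 169, 153 and 179 CPM with oxamate, a 5.21-fold fall. Spz1, a basic helix-loop-helix zipper transcription factor of the testis, fell 4.25-fold, and Kif2b, a kinesin that shortens microtubules, fell 4.76-fold. Hk1 encodes hexokinase, the enzyme of the first step of glycolysis. It was at 341, 496 and 444 CPM with octyl-L2HG plus oxamate and 567, 658 and 673 CPM with oxamate, the shallowest fall of the 12, 1.5-fold (limma adjusted p = 0.0055). The remaining members of the 12 were Spata20, Ms4a14, Spata21 and Tulp2, a tubby-like protein, and they fell between 2.44-fold (Tulp2) and 4.07-fold (Spata21).

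**Figure D1:**
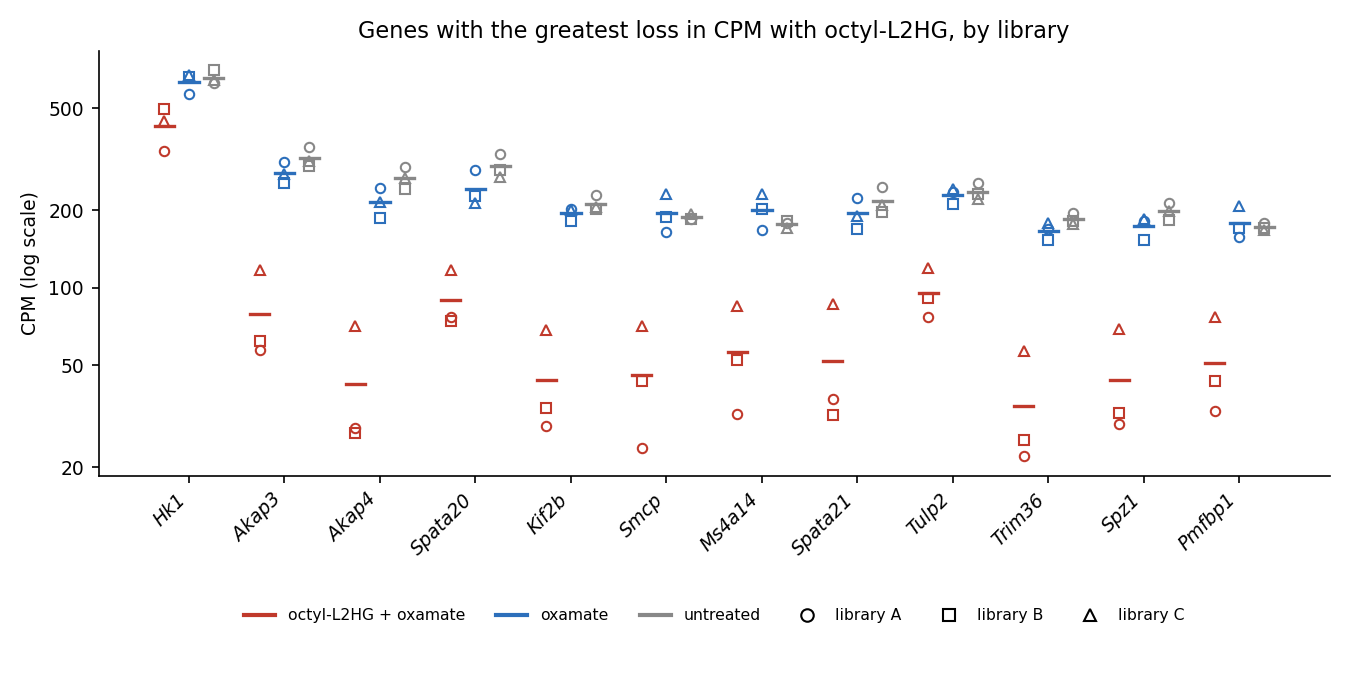
Level in CPM, on a log axis, of the 12 named genes with the greatest loss in mean CPM, in each library of octyl-L2HG plus oxamate (red), oxamate (blue) and untreated cells (grey); bars are group means and the symbol gives the library letter. All octyl-L2HG libraries lie below all oxamate libraries for each gene, and library C (triangle) is the highest of the octyl-L2HG libraries for all of them except Hk1.

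Promoter sequence is shown for 4 genes that fell, Kif2b and Spz1 from the 12 above and Spem1 and Tssk6 from the list of elongating spermatid genes described below, because CREM and RFX proteins, which drive spermatid genes, bind the cyclic AMP response element (CRE) and the X-box. Capitals mark a CRE half-site (TGACG) or an X-box half-site (GTTGCC, or GGCAAC where it reads on the other strand). Each of the 4 stretches holds a half-site, so they do not show how often genes that fell hold such letters. Each line gives the 120 bases before the RefSeq start, 5′ to 3′ on the gene's strand, on GRCm38.p6.
Kif2b: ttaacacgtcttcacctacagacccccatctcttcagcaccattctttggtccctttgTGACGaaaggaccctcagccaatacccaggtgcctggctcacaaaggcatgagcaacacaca
Spz1: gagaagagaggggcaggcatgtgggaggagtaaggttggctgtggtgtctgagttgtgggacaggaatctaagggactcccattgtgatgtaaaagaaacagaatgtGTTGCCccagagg
Spem1: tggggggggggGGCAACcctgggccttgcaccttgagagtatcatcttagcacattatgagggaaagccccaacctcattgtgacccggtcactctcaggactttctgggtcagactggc
Tssk6: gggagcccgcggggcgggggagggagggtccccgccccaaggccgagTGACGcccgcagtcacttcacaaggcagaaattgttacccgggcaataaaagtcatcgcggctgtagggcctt
The Kif2b stretch is chr11:91577556-91577675 on the minus strand, with its half-site at positions -62 to -58 from the start. The Spz1 stretch is chr13:92576233-92576352 on the minus strand, with an X-box half-site at -13 to -8. The Spem1 stretch is chr11:69822166-69822285 on the minus strand and holds the reverse half-site at -109 to -104. The Tssk6 stretch is chr8:69902064-69902183 on the plus strand, with a CRE half-site at -73 to -69.

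Such matches were common in all genes. In the RefSeq window of 300 bases around each start, searched on both strands, TGACG was present for 24.7% of 1941 genes that fell, 34.9% of 516 that rose and 31.5% of 12449 tested genes with an entry. The full element TGACGTCA, which contains the half-site, was present for 3.14% of the falls, 2.33% of the rises and 3.28% of the tested genes. GTTGCC was present for 20.3% of the falls, 13.4% of the rises and 16% of the tested genes, and TATAAA for 13.1% of the falls, 8.72% of the rises and 10.3% of the tested genes. CCAAT was found for 42.7% of the falls, 42.4% of the rises and 42.7% of the tested genes. Over all 32851 promoters of the table TGACG was found in 20.8%, TGACGTCA in 1.79%, GTTGCC in 12.5%, TATAAA in 13.6% and CCAAT in 37.4%. A match describes letters in this window and is not a binding site.

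Genes that mark spermatids made up the clearest group. Of 22 elongating spermatid markers 19 fell (86.4%, beside 15.4% of all tested genes) and the other 3 did not pass the threshold. The median log2 change over the list was -2.45, beside 0.07 over all tested genes. For round spermatids 20 of 25 markers fell (80%), the others did not pass, and the list's median was -1.55. In RNA from a whole culture, fewer spermatids and less RNA per cell cannot be told apart. Without octyl-L2HG library C the counts were again 19 and 20, and the medians -2.90 and -1.85.

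The nuclear proteins that replace histones in spermatids were among them. Tnp1 and Tnp2, the transition proteins that stand in between histones and protamines, fell 8.54-fold and 8.66-fold. Tnp1 was at 3.76, 5.41 and 13.4 CPM with octyl-L2HG plus oxamate and at 52.9, 46.9 and 67.7 CPM with oxamate. Tnp2 was at 5.23, 4.09 and 17.2 CPM with octyl-L2HG plus oxamate and at 68.1, 51.8 and 74.7 CPM with oxamate (limma adjusted p = 0.00013). The groups lay far apart for both genes. Prm2, a protamine, was at 6.07, 4.49 and 24.7 CPM with octyl-L2HG plus oxamate and at 43.6, 43.0 and 78.9 CPM with oxamate (5.81-fold lower, limma adjusted p = 0.0053). Its call was lost without octyl-L2HG library A (limma adjusted p = 0.06) and with no filter on low counts (limma adjusted p = 0.058), and its adjusted p ranged up to 0.06 over the alternative settings. H1f7 and Hils1, linker histone variants of spermatids, fell 11.3-fold and 5.38-fold.

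Flagellum and head genes of elongating spermatids fell as well. Spem1, whose product is needed to shed the cytoplasm from the sperm head in mice, was at 0.652, 0.572 and 2.92 CPM with octyl-L2HG plus oxamate and at 23.6, 17.6 and 20.8 CPM with oxamate, a 18.8-fold fall (log2 change -4.24, SE 0.41, limma adjusted p = 6.0e-05). Tssk6, a testis-specific kinase, was at 0.252, 0.088 and 1.14 CPM with octyl-L2HG plus oxamate against 8.06, 4.96 and 5.15 CPM with oxamate, 16.7-fold lower. Odf1, a component of the outer dense fibres of the tail, fell 4.06-fold. The 3 markers that did not pass the threshold were Odf2 (2501, 3476 and 2652 CPM with octyl-L2HG plus oxamate against 2705, 3334 and 3301 CPM with oxamate), Hook1 and Car4. Odf2 and Hook1 also had the highest CPM of the list, and Car4 was under 1 CPM in each of the 6 libraries.

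Among round spermatid markers the 5 that did not pass the threshold were Acr, Zpbp, Zpbp2, Dpep3 and Pgam2. Acr encodes acrosin, the protease stored in the acrosome. It was at 223, 304 and 232 CPM with octyl-L2HG plus oxamate and 230, 290 and 274 CPM with oxamate (log2 change -0.08, SE 0.13), with overlapping groups. These 5 were between 223 and 563 CPM in the octyl-L2HG libraries, whereas Actl7b, at 177, 173 and 189 CPM with octyl-L2HG plus oxamate and 299, 257 and 257 CPM with oxamate, was the only gene of this list above 100 CPM in each octyl-L2HG library that fell (1.51-fold, limma adjusted p = 0.00045). Izumo1, the sperm receptor for the egg protein Juno, was at 7.40, 7.48 and 12.5 CPM with octyl-L2HG plus oxamate and at 26.6, 23.9 and 21.9 CPM with oxamate, a 2.69-fold fall. Tex29 fell 6.78-fold, the deepest of the list.

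The level of the spermatid lists differed within the octyl-L2HG group. The median log2 ratio to the oxamate mean over the elongating spermatid markers was -2.82, -2.93 and -1.56 in octyl-L2HG libraries A, B and C, and lay between -0.23 and 0.13 in the oxamate libraries. For round spermatid markers it was -1.87, -1.65 and -0.89. In all, library C was the highest of the 3 octyl-L2HG libraries for 2356 of the genes that fell (84.1%), and over those genes its median level was 45.4% of the oxamate mean, against 23.7% in library A and 24.9% in library B. The genes that rose showed no such gap, with median levels of 136.4%, 132.4% and 130.0% of the oxamate mean. Whether this library differs in its cells or its handling was not tested.

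**Figure D2:**
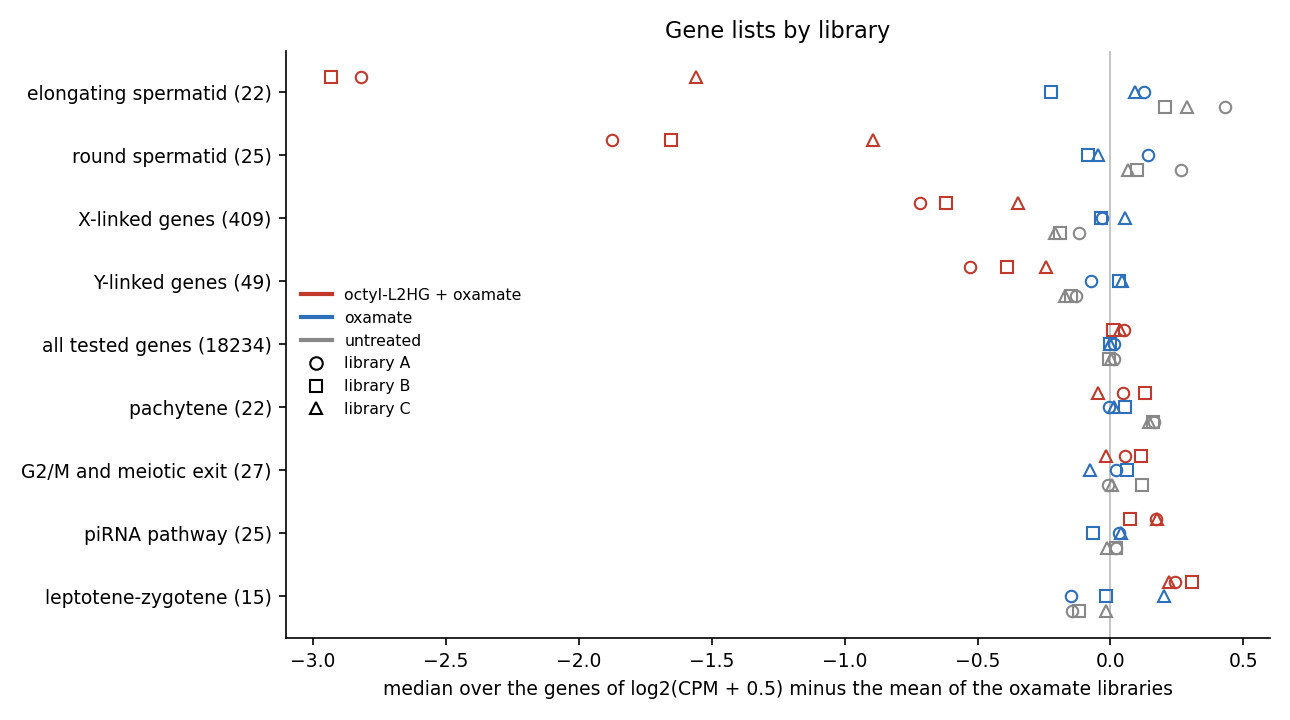
For each gene list, with its number of tested genes, the median over the genes of log2(CPM + 0.5) minus the mean of that gene over the oxamate libraries, for each library of octyl-L2HG plus oxamate (red, upper row), oxamate (blue) and untreated cells (grey, lower row). The spermatid lists and the sex-linked genes lie to the left in all octyl-L2HG libraries, with library C (triangle) nearest to 0, and the pachytene list and all tested genes lie near 0.

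Some GO terms for sperm parts and functions held a larger share of falls than all tested genes, and others did not. Under manchette, the microtubule skirt of the elongating spermatid head, 1 of 12 genes fell and none rose (8.33%, beside 15.4% of all tested genes). Under the term for fusion of sperm with the egg membrane 10 of 12 tested genes fell (83.3%) and none rose. Hyal5 and Spam1, hyaluronidases of the sperm surface, fell 4.78-fold and 3.31-fold, and Adam1a, a membrane protein with a metalloprotease domain, fell 3.73-fold. Hyal5 was at 8.28, 8.27 and 17.8 CPM with octyl-L2HG plus oxamate and at 54.4, 49.0 and 51.7 CPM with oxamate, so that its groups did not overlap. Of 19 genes under sperm capacitation 7 fell (36.8%), led by Sept4, Cabyr and Efcab9, at 3.29-, 3.63- and 2.69-fold. Sept4 is a septin of the ring at the end of the flagellar midpiece, and Efcab9 a calcium sensor of the CatSper channel. Of 103 genes under acrosomal vesicle 33 fell (32%) and 3 rose (2.91%), but none of the term's genes rose without octyl-L2HG library A or B or oxamate library A. Prss37 led the falls, at 0.610, 0.440 and 1.80 CPM with octyl-L2HG plus oxamate and 16.9, 12.5 and 14.7 CPM with oxamate.

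Under sperm flagellum 17 of 50 genes fell (34%) and none rose. Wbp2nl, a protein of the sperm head linked to egg activation, fell 11.6-fold, Saxo1, a microtubule-binding protein of the flagellum, 11.9-fold, and Spata18 2.39-fold. The median log2 change of the term was -0.04, and of 84 genes under axoneme 13 fell (15.5%), which is near the 15.4% of all tested genes. Tekt4, a tektin filament protein of the axoneme and a gene named after its values were seen, was at 217, 235 and 225 CPM with octyl-L2HG plus oxamate and 281, 282 and 263 CPM with oxamate, a log2 change of -0.29. Under cilium 50 of 304 fell (16.4%), also near the share of all tested genes. Under manchette, the microtubule skirt that shapes the spermatid head, 1 of 12 fell (8.33%).

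Under metalloendopeptidase activity 23 of 80 genes fell (28.8%, beside 15.4% of all tested genes) and 1 rose. The leading members were Adam6b, Gm4787 and Adam6a. Adam6b was at 0.673, 0.792 and 1.75 CPM with octyl-L2HG plus oxamate against 12.3, 10.9 and 12.4 CPM with oxamate, and Adam6a fell 15.7-fold. Adam6a and Adam6b are close copies, so their reads may be split between them. Under nucleosome 15 of 45 genes fell (33.3%) and none rose, and the leading members were Tnp1, Prm3 and Tnp2. Under calcium channel activity 13 of 57 fell (22.8%) and 1 rose, and 8 fell without octyl-L2HG library A. Pkd1l3 was 6.42-fold, Mcu 6.64-fold and Itpr1 3.25-fold lower. Mcu is the pore of the mitochondrial calcium uniporter, and Itpr1 is a calcium release channel of the endoplasmic reticulum. Under ubiquitin-dependent protein catabolic process 37 of 247 fell, and 15% is near the share of all tested genes. Its leading member Ubqln5, of a testis group of ubiquilins, was at 0.336, 0.352 and 1.17 CPM with octyl-L2HG plus oxamate against 10.7, 8.15 and 9.54 CPM with oxamate.

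Some genes of glycolysis also fell, 7 of 26 tested under glycolytic process (26.9%, beside 15.4% of all tested genes), with no rise. The term's median change was -0.18 (log2). Gapdhs, the glyceraldehyde-3-phosphate dehydrogenase of sperm, was at 17.3, 17.6 and 44.1 CPM with octyl-L2HG plus oxamate and at 150, 103 and 108 CPM with oxamate, a 4.93-fold fall (limma adjusted p = 0.00018). Pkm, pyruvate kinase, was at 6.62, 5.46 and 8.98 CPM with octyl-L2HG plus oxamate and at 28.7, 24.7 and 27.9 CPM with oxamate, a 3.87-fold fall. Gpi1, glucose-6-phosphate isomerase, fell 1.92-fold and Aldoart1, a retrogene aldolase of the testis, 3.24-fold. All 3 octyl-L2HG libraries lay below the oxamate libraries for these genes. The lactate dehydrogenases did not pass the threshold. Ldhc, the testis form, was at 3181, 3253 and 2783 CPM with octyl-L2HG plus oxamate against 3294, 2861 and 2883 CPM with oxamate (log2 change 0.03, SE 0.08), and Ldha was at 1123, 978 and 1029 CPM with octyl-L2HG plus oxamate against 1114, 1025 and 977 CPM with oxamate (log2 change 0.01, SE 0.08). Under complex I of the respiratory chain none of 44 genes passed the limma threshold, with 2 at an unadjusted p under 0.05 and 1 call in the authors' deposited table. Under tricarboxylic acid cycle 3 of 29 fell and 1 rose, Fh1, the gene of fumarase, being 3.25-fold lower.

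**Figure D3:**
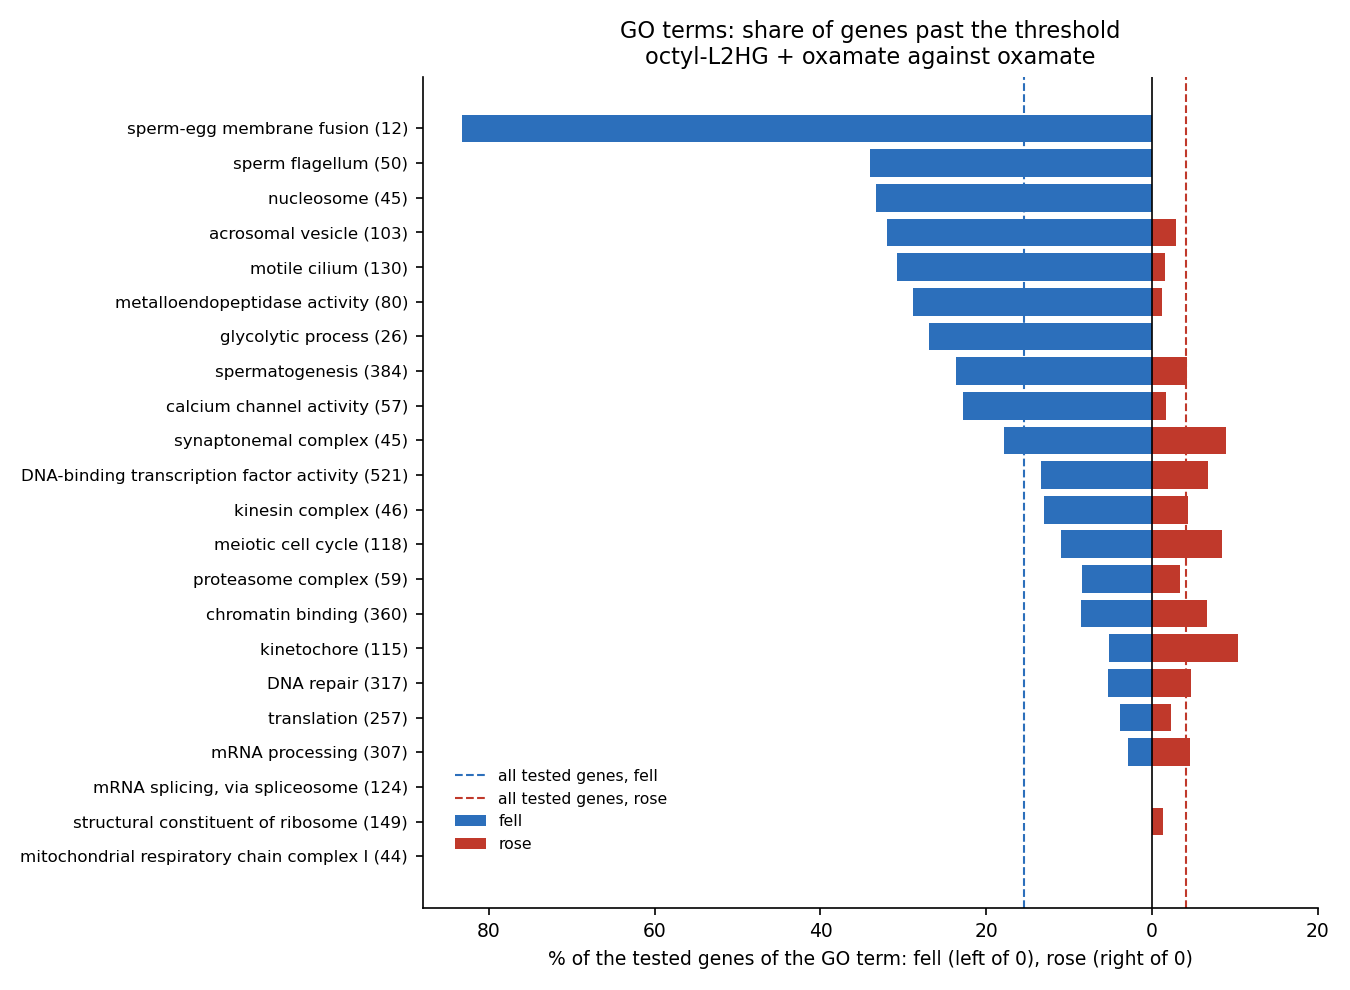
Share of the tested genes of 22 GO terms, chosen with the results known, that fell (blue, left of 0) or rose (red, right of 0) with octyl-L2HG plus oxamate against oxamate; the number of tested genes is in brackets and the dashed lines give the shares of all tested genes, 15.4% and 4.11%. The terms sperm flagellum, acrosomal vesicle and sperm-egg membrane fusion lie beyond the line for falls, and terms for splicing, ribosome and complex I hold almost no gene that changed.

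The list of lactate dehydrogenase and 2-hydroxyglutarate genes held 28 tested members. Their median was 0.08 on the log2 scale, and 1 fell. D2hgdh, which oxidises D-2-hydroxyglutarate, the mirror form of the acid, was at 2.86, 2.55 and 3.37 CPM with octyl-L2HG plus oxamate and at 2.78, 3.05 and 2.99 CPM with oxamate, a log2 change of 0.01 (SE 0.17). The fall was that of Slc16a7, a monocarboxylate transporter, at 143, 134 and 167 CPM with octyl-L2HG plus oxamate against 276, 230 and 237 CPM with oxamate (1.67-fold, limma adjusted p = 0.00035).

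Of 45 tested dioxygenases that need 2-oxoglutarate, 2 rose and 1 fell, and the median log2 change was 0.08. The share of rises, 4.44%, was near the 4.11% of all tested genes. The share of falls, 2.22%, was below the 15.4% of all tested genes. Kdm3a and Jmjd1c, related enzymes of the family that demethylates histone H3 at lysine 9, rose by log2 0.28 and 0.38. Kdm3a was at 624, 623 and 603 CPM with octyl-L2HG plus oxamate and at 480, 526 and 517 CPM with oxamate. Phf8, an X-linked histone demethylase, was at 0.589, 0.704 and 2.08 CPM with octyl-L2HG plus oxamate and at 5.71, 5.10 and 5.07 CPM with oxamate, a 5.41-fold fall. Among 33 histone methyltransferase and polycomb genes none rose and Suv39h2 and Jarid2 fell, by 0.92 and 0.58 on the log2 scale; Suv39h2 is a testis-enriched methyltransferase for histone H3 at lysine 9.

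X-linked genes fell more often than autosomal genes, 210 of 409 (51.3%) against 14.5% of 17760, and a single X-linked gene rose. Among genes between 1 and 10 CPM 65% of X-linked and 18.3% of autosomal genes fell, and between 10 and 100 CPM 75% of 32 X-linked and 12.7% of autosomal genes. The gap was narrower under 1 CPM, at 30% and 17.6%. Single autosomes ranged from 11.7% to 16.8%. The share of all counts on the X was 0.084%, 0.098% and 0.130% with octyl-L2HG plus oxamate, 0.216%, 0.198% and 0.217% with oxamate, and 0.196%, 0.171% and 0.181% in untreated cells. The octyl-L2HG libraries thus lay below both other groups.

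**Figure D4:**
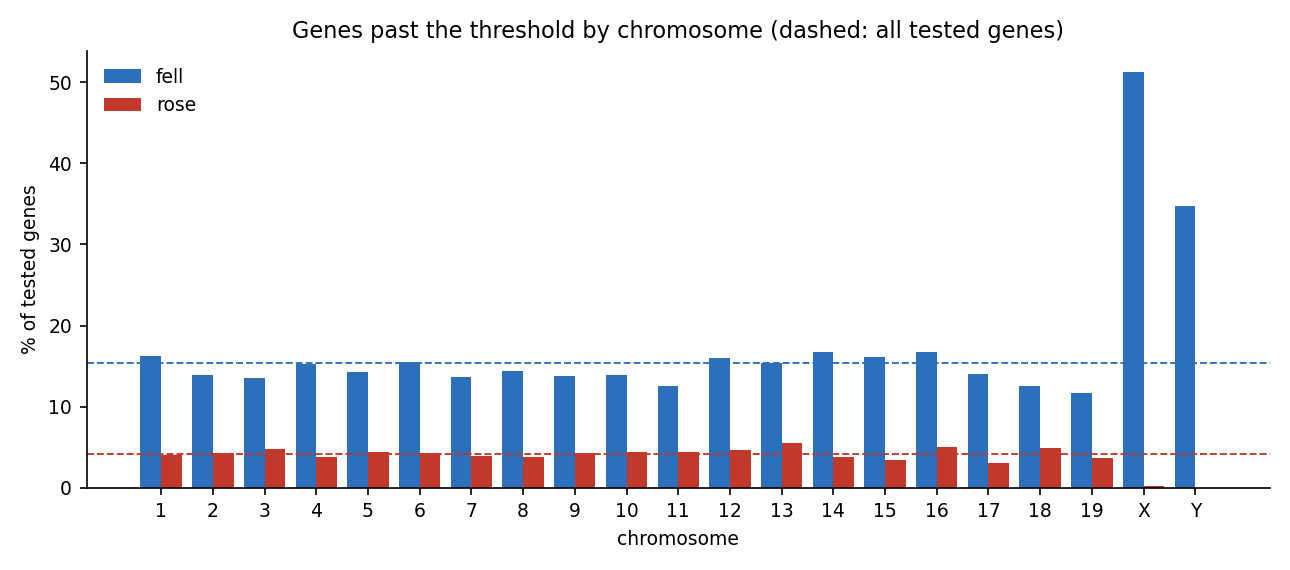
Percentage of tested genes on each chromosome that fell (blue) or rose (red) with octyl-L2HG plus oxamate against oxamate, with dashed lines at the shares of all tested genes. The autosomes lie between 11.7% and 16.8% for falls, and the X and Y chromosomes at 51.3% and 34.7%.

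Y-linked genes, of which 49 were tested, gave 17 falls (34.7%) and no rise. A list of genes known to be switched on from the sex chromosomes in spermatids had 14 of 24 members tested. Of these 12 fell (85.7%, beside 15.4% of all tested genes), none rose, and the median log2 change was -1.56. Leaving out octyl-L2HG library A gave 8 falls. One of its members, Hsfy2, lies on chromosome 1 in the table. Actrt1, an actin-related protein of the X, was at 0.504, 0.352 and 1.09 CPM with octyl-L2HG plus oxamate and at 3.37, 3.08 and 3.15 CPM with oxamate. Sly, a multicopy gene of the Y whose product acts on the sex chromosomes in mouse spermatids, was at 0.673, 0.836 and 0.862 CPM with octyl-L2HG plus oxamate and at 1.27, 1.6 and 1.37 CPM with oxamate. Slxl1, its X-linked relative, fell 1.83-fold, and reads of both families may be split between copies.

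Genes of the machinery that silences the sex chromosomes changed in both directions, and the balance turned on single libraries. Of 25 tested, 5 rose (20%, beside 4.11% of all tested genes) and 2 fell (8%, beside 15.4%). The median log2 change was 0.15. Atr, the kinase that spreads the DNA damage signal over the X and Y, was at 784, 790 and 685 CPM with octyl-L2HG plus oxamate and at 598, 613 and 650 CPM with oxamate, a 1.21-fold rise (limma adjusted p = 0.026), and it was at 731, 751 and 795 CPM in untreated cells. Hormad1 and Hormad2, axis proteins that bring Atr to unpaired chromosomes, rose 1.27-fold and 1.42-fold, and the ubiquitin ligase Rnf8 1.31-fold. Fancd2, a DNA crosslink repair protein, was at 88.2, 87.2 and 86.1 CPM with octyl-L2HG plus oxamate and 74.6, 73.4 and 73.7 CPM with oxamate. Without octyl-L2HG library B or oxamate library A 1 gene of the list rose and 3 fell, without octyl-L2HG library A or oxamate library B 1 rose and 2 fell, and without library C of either group 3 rose and 2 fell. Mdc1, the adaptor that carries the signal into chromatin, was at 714, 852 and 792 CPM with octyl-L2HG plus oxamate against 641, 702 and 737 CPM with oxamate, and did not pass the threshold (limma adjusted p = 0.19). H2ax was at 37.5, 23.3 and 34.8 CPM with octyl-L2HG plus oxamate against 35.7, 29.4 and 30.1 CPM with oxamate, with overlapping groups. The falls were Cul4b, a ubiquitin ligase scaffold encoded on the X, 2.30-fold, and Chd5, a chromatin remodeller that acts at the exchange of histones for protamines in mouse spermatids, at 25.8, 31.6 and 63.8 CPM with octyl-L2HG plus oxamate against 150, 154 and 174 CPM with oxamate.

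Several transcription factors that drive spermatid genes, Crem and Rfx2 among them, had high CPM with oxamate and did not pass the threshold. Spz1, of the same list, did fall, 4.25-fold. It was at 29.4, 32.6 and 68.8 CPM with octyl-L2HG plus oxamate and at 182, 153 and 186 CPM with oxamate. Crem, the CRE activator of spermatid genes, was at 201, 235 and 188 CPM with octyl-L2HG plus oxamate and 215, 206 and 213 CPM with oxamate (log2 change -0.03, SE 0.09). Rfx2, an X-box factor needed in mouse spermatids, was at 469, 460 and 493 CPM with octyl-L2HG plus oxamate and 507, 513 and 467 CPM with oxamate. Mybl1, Tcfl5, Sox30, Tbpl1 and Brdt had log2 changes of 0.33, 0.17, -0.27, 0.08 and 0.13 and none passed the threshold. Mybl1 was called as a rise in the authors' deposited table (DESeq2 adjusted p = 0.025). It stayed without a call in 14 of the 15 alternative settings. For Sox30 the groups overlapped, at 153, 212 and 179 CPM with octyl-L2HG plus oxamate and 178, 225 and 252 CPM with oxamate, and it passed the threshold as a fall without octyl-L2HG library B and without oxamate library A.

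Of 25 tested factors of this list 6 fell (24%) and 2 rose (8%), beside 15.4% and 4.11% of all tested genes. Fhl5, the coactivator of CREM in the testis, was at 2.59, 2.77 and 6.70 CPM with octyl-L2HG plus oxamate and at 34.0, 19.9 and 23.6 CPM with oxamate, a 6.89-fold fall (limma adjusted p = 0.00012). Sox5 fell 3.95-fold, at 11.6, 13.4 and 25.4 CPM with octyl-L2HG plus oxamate against 62.6, 59.0 and 67.0 CPM with oxamate. Taf7l, the X-linked germ cell subunit of the general factor TFIID, was at 5.55, 8.58 and 8.09 CPM with octyl-L2HG plus oxamate and at 12.7, 14.7 and 15.6 CPM with oxamate, a log2 change of -1 (limma adjusted p = 0.0011). The other falls were those of Spz1, Rfx1 (2.49-fold) and Rfx3 (1.67-fold), and the rises those of Creb1 (1.31-fold) and Crebl2 (1.48-fold). Rfx1, Rfx3, Creb1 and Crebl2 were named after their values were seen.

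Among markers of the spermatocyte itself few passed the threshold. Of 22 pachytene markers 1 fell, none rose and the median log2 change was 0.06. The fall was that of Spag6, a protein of the central pair of the flagellum, at 19.8, 19.9 and 36.5 CPM with octyl-L2HG plus oxamate against 71.7, 52.8 and 56.8 CPM with oxamate. The summed level of the list was 16694, 19195 and 16109 CPM with octyl-L2HG plus oxamate and 16113, 17550 and 17300 CPM with oxamate. Sycp3, of the axis of meiotic chromosomes, was at 206, 238 and 174 CPM with octyl-L2HG plus oxamate and 151, 172 and 210 CPM with oxamate, and Ddx4, a germ cell RNA helicase, at 1099, 1333 and 1064 CPM with octyl-L2HG plus oxamate and 932, 1111 and 1149 CPM with oxamate. Both pairs of groups overlapped. None of 9 tested spermatogonia markers passed the limma threshold, with 1 at an unadjusted p under 0.05 and 0 calls in the authors' deposited table.

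Some genes of early meiotic prophase rose. Of 15 leptotene and zygotene markers none fell, the median log2 change was 0.26, and 4 rose (26.7%, beside 4.11% of all tested genes). They were Hormad1, Hormad2, Gm960 and Meioc. Meioc, which holds germ cells in meiotic prophase in mice, was at 688, 802 and 615 CPM with octyl-L2HG plus oxamate and at 416, 550 and 590 CPM with oxamate, a 1.36-fold rise (limma adjusted p = 0.04). Hormad2 was at 18.3, 17.0 and 17.2 CPM with octyl-L2HG plus oxamate and at 12.8, 12.2 and 12.1 CPM with oxamate. Spo11, which makes the breaks of recombination, was at 99.8, 91.4 and 89.3 CPM with octyl-L2HG plus oxamate and 79.8, 72.5 and 82.2 CPM with oxamate and did not pass the threshold (limma adjusted p = 0.083). A single gene of the list rose when octyl-L2HG library A or B, or oxamate library A or B, was left out.

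Among the genes with the greatest gain in CPM, those described here rose by log2 0.24 to 0.48. Ccp110, a centriole cap protein, was at 703, 707 and 678 CPM with octyl-L2HG plus oxamate and at 481, 529 and 578 CPM with oxamate, a 1.32-fold rise (limma adjusted p = 0.003). Catspere1, an auxiliary subunit of the CatSper channel, was at 268, 272 and 243 CPM with octyl-L2HG plus oxamate and 168, 206 and 189 CPM with oxamate, a 1.40-fold rise. Ccp110 and Catspere1 kept their calls under all 15 alternative settings.

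Kat7, a histone acetyltransferase, was at 583, 618 and 559 CPM with octyl-L2HG plus oxamate, 482, 508 and 472 CPM with oxamate and 596, 663 and 620 CPM in untreated cells. Smg1, the kinase of nonsense-mediated decay, was at 519, 486 and 523 CPM with octyl-L2HG plus oxamate, 419, 435 and 399 CPM with oxamate and 328, 345 and 322 CPM in untreated cells. Kat7 with octyl-L2HG plus oxamate was thus nearer to its untreated level than with oxamate, and Smg1 farther from it. Usp32, a deubiquitinase, rose by log2 0.24. Mbtd1, a methyl-lysine reader, rose 1.28-fold, Ptpn20, a tyrosine phosphatase, 1.31-fold, and Dr1, a repressor of the general transcription machinery, 1.27-fold. Of the 15 settings, Smg1, Kdm3a and Dr1 kept their calls in 13, Ptpn20 in 14, Usp32 and Mbtd1 in 10, Atr and Kat7 in 9, and Meioc in 7. Without octyl-L2HG library A the calls of Meioc, Atr, Kdm3a, Usp32, Kat7, Smg1, Mbtd1 and Dr1 were lost. Those of Meioc, Atr, Usp32, Kat7 and Mbtd1 were also lost without octyl-L2HG library B or without oxamate library A, those of Meioc and Atr without oxamate library B, and that of Kat7 without oxamate library C.

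**Figure D5:**
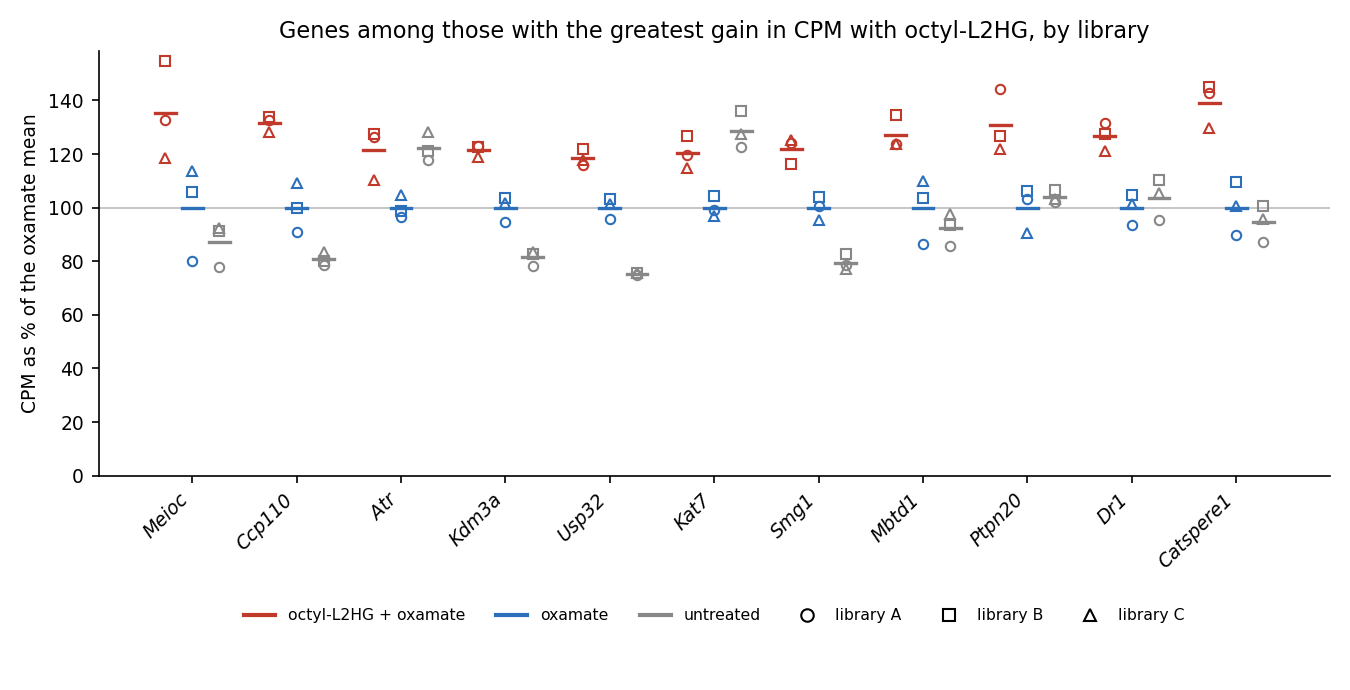
Level of the described genes with the greatest gain in mean CPM, as a percentage of the oxamate mean, in each library of octyl-L2HG plus oxamate (red), oxamate (blue) and untreated cells (grey); bars are group means. The octyl-L2HG libraries lie above all oxamate libraries for each gene, while untreated cells lie above the oxamate mean for some (Atr, Kat7) and below it for others (Usp32, Smg1).

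Of 115 tested kinetochore genes 12 rose (10.4%) and 6 fell (5.22%), beside 4.11% and 15.4% of all tested genes. The members with the smallest p were falls, those of Kif2b, Rangap1 and Dynlt3 at 4.76-, 1.65- and 3.46-fold. Among the rises, named after their values were seen, were Dsn1 of the outer kinetochore, at 83.6, 73.6 and 78.4 CPM with octyl-L2HG plus oxamate and 60.7, 61.2 and 63.3 CPM with oxamate, the checkpoint protein Mad2l1 (1.33-fold) and the heterochromatin protein Cbx5 (1.31-fold). The kinetochore counts were 5 rises and 4 falls without octyl-L2HG library A, 7 rises and 6 falls without octyl-L2HG library B, and 6 of each without oxamate library A. The rises ranged from 3 to 27 over the alternative settings. Of 27 genes for G2/M and meiotic exit Cdk2 and Mad2l1 rose, by 1.23-fold and 1.33-fold, and none fell. Mad2l1 lost its call without octyl-L2HG library A or B or oxamate library A or B, and Cdk2 without octyl-L2HG library A or C or oxamate library B or C. Under meiotic cell cycle 13 of 118 fell (11%) and 10 rose (8.47%), with 4 rises without octyl-L2HG library A, oxamate library A or oxamate library B. Without octyl-L2HG library C 18 genes of this term fell and 9 rose. Under synaptonemal complex 8 of 45 fell (17.8%, near the share of all tested genes) and 4 rose (8.89%). There were 5 falls without oxamate library C, and 12 falls and 2 rises without octyl-L2HG library C. A single gene rose without octyl-L2HG library A, oxamate library A or oxamate library B. The members of the second term with the smallest p were 1700013H16Rik and Gm5169, both on the X, and Syce2, a central element protein. Syce2 fell by 0.93 on the log2 scale.

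In other lists few genes passed the threshold. None of 25 piRNA pathway genes passed the limma threshold, where 8 had an unadjusted p under 0.05 and the authors' deposited table called 1. The same held for 16 p53 target genes, with 3 at an unadjusted p under 0.05 and 1 call in the authors' deposited table, and their median log2 change was 0.24. Of 22 genes of the amino acid response led by ATF4, Nars rose 1.39-fold, a call lost without octyl-L2HG library A or oxamate library B, and Asns, asparagine synthetase, fell 3.94-fold. Of 18 heat shock proteins 2 fell, Hspa1l and Dnajb13. Hspa1l, a spermatid chaperone, was at 4.81, 3.74 and 11.8 CPM with octyl-L2HG plus oxamate against 57.7, 44.8 and 57.1 CPM with oxamate, and Dnajb13, of the sperm flagellum, fell 1.29-fold. Under the GO terms for splicing via the spliceosome (124 genes), the cytosolic large ribosomal subunit (48) and the mitochondrial ribosome (20) no gene passed the limma threshold, with 24, 2 and 1 at an unadjusted p under 0.05 and 2, 0 and 0 calls in the authors' deposited table. Up to 18 of the splicing genes, 8 of the piRNA genes, 4 of the p53 targets and 6 of the ATF4 genes rose under an alternative setting.

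Many markers of somatic testis cells had few or no counts. Among peritubular markers this held for Acta2, Des, Myl9, Tpm2 and Dcn, with no more than 10 counts in each of the 6 libraries. Mylk had the most counts of the peritubular list and did not pass the threshold. It had 2258, 1291 and 1652 counts with octyl-L2HG plus oxamate and 1691, 1537 and 1324 counts with oxamate. Of 62 markers 37 had no more than 10 counts in each of the 6 libraries, among them Sox9, Wt1 and Gata4 of Sertoli cells and Cyp17a1 and Insl3 of Leydig cells, and Gata4 had no count in any of the 9 libraries. Of 21 that were tested 7 fell and none rose, a larger share than the 15.4% of all tested genes that fell, and 3 of the falls were among 6 tested peritubular markers. Their part in the other results was not tested. Summed levels with octyl-L2HG plus oxamate and with oxamate were 2.16 to 2.63 and 2.41 to 2.91 CPM for Sertoli, 2.60 to 2.69 and 2.67 to 2.99 CPM for Leydig, 55.8 to 64.0 and 67.6 to 85.1 CPM for peritubular, 2.49 to 8.93 and 2.61 to 5.04 CPM for macrophage and 3.76 to 7.48 and 6.74 to 8.11 CPM for endothelial markers. No blood marker could be tested. The falls included Actg2, at 4.22, 2.95 and 8.62 CPM with octyl-L2HG plus oxamate and 34.7, 23.6 and 25.9 CPM with oxamate. Others had few counts in both groups. With octyl-L2HG plus oxamate and with oxamate, C1qb had 0, 0 and 2 against 15, 10 and 14 counts. Cdh5 had 5, 3 and 8 against 22, 13 and 24, and Cyp1b1 5, 0 and 5 against 47, 17 and 29. The macrophage markers Csf1r and Adgre1 did not pass the threshold.

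Oxamate against untreated cells shares the oxamate libraries with this comparison, so its values are given beside it and not as separate support. With oxamate against untreated cells 9.58% of tested genes passed the threshold, 3.84% as falls and 5.74% as rises. Of the 2801 genes that fell with octyl-L2HG plus oxamate, 59 fell there, 61 rose and 2681 did not pass. Of the 749 that rose, 160 also rose with oxamate against untreated cells and 40 fell. For the elongating spermatid list the median log2 change was -2.45 for octyl-L2HG plus oxamate against oxamate, and the untreated libraries lay 0.21 to 0.43 above the oxamate mean. The authors' deposited table called 3349 of the same 18234 genes, 2523 lower and 826 higher. Of these, 2450 falls and 586 rises were also called here, and no gene was called in opposite directions.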

How the data were processed

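RNA of 9 mouse germ cell libraries was made into poly-A libraries with a stranded kit, per the labels. Per the submitters' processing notes the tools, named without parameters, were TopHat2 2.1.1, HTSeq 0.6.0, DESeq2 1.22.2, cutadapt 1.18 and bcl2fastq 2.18.0.12, and the build was GRCm38. No source used here gives the strand setting of the counting, so overlapping and antisense genes may not be told apart, and reads of multicopy families may be split. The deposited columns used were raw counts, checked to be whole in all 442944 values, and the authors' log2 fold change and adjusted p-value. Because a question mark stands for a missing value, the columns were recorded as another unit than counts, and limma-voom was used in place of a count model. The 9 columns of normalized values were not used.

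Genes with at least 10 counts, scaled to the median library, in any 3 of the 9 libraries and 15 in all were kept. Libraries were scaled by TMM (trims of 30% and 5%), and all 9 were fitted with limma 3.58.1 (R 4.3.3) with robust variance moderation, an offset of 0.5 and Benjamini-Hochberg adjustment. The fit was tested on simulated data. GO names are those of the deposited table. Tables and figures were made with pandas 2.3.3 and matplotlib 3.10.9. CPM values are not per length, so a higher CPM of one gene than of another is a statement on counts. Counts of replicates differed by more than sampling noise in every pair.

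Named genes were the 12 falls and 12 rises of greatest difference in mean CPM among genes with non-overlapping groups and a named symbol, the 3 members of smallest p of each list or GO term described, and a fixed set around CREM, protamines, lactate dehydrogenase, 2-hydroxyglutarate, sex chromosome silencing and meiosis. Other genes named were chosen after their values were seen. Of 92 GO terms chosen 88 had at least 10 tested genes. Members, lists, terms and tests were chosen with earlier results of these data known. The 22 lists had 476 entries, of which 5 were matched by an older symbol and 2 not at all. Promoters came from RefSeq on GRCm38.p6. Some results that the rule would name are not reported here.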

Additional observations from a re-analysis of the deposited data

How the results depend on the processing

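No called gene was called in the opposite direction under the 15 alternative settings, though values and list medians near 0 could change sign and the balance of rises and falls could turn in small lists, and 1649 of the falls and 111 of the rises were called under each of them. The number of falls ranged from 2218 to 3214 over the settings that kept all libraries. With the 6 libraries alone, 209 of the 2801 falls did not pass the filter and were not tested. The number of rises moved more, to 146 with the 6 libraries alone, 401 with total count scaling, 321 with no filter on low counts and 351 with at least 1 CPM in 3 libraries. Leaving out 1 library gave 2297 to 3661 changed genes, 2049 to 2972 falls and 248 to 689 rises; the lowest values came without octyl-L2HG library A. With the letter as a replicate block 5205 genes changed, 3214 fell and 1991 rose. The labels do not say that a letter marks a shared source. Deviations of same-letter libraries correlated at 0.46 (A), 0.52 (B) and 0.01 (C), and those of different letters at -0.62 to 0.3. The values for A and B lay above all of the latter and that for C did not, so the pairing was not taken as shown. Over the named genes, 4374 values kept their side of the threshold, 155 lost a call and 49 gained one. The median log2 change of all genes was 0.066, and 0.032 to 0.091 under other scalings. Limits: no library had octyl-L2HG without oxamate, so the ester's effect without the inhibitor was not measured. Small rises are near the spread between libraries at this depth, and their number is less certain than that of the falls.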

Other observations

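Among 938 further GO terms with at least 30 tested genes, the 8 with the highest share of falls and the 8 with the highest share of rises were taken by that share, with no test. Of all tested genes 15.4% fell and 4.11% rose. Microtubule-based process had 10 falls (33.3%) and 2 rises (6.67%) among 30 genes. Its leading member Tuba8, an alpha tubulin, was at 1.05, 1.10 and 3.42 CPM with octyl-L2HG plus oxamate and at 29.8, 26.2 and 34.4 CPM with oxamate. The groups lay far apart. Inner ear morphogenesis had 13 falls (35.1%) and no rise among 37 genes, led by Dlx5, Chd7 and Gata2. Metallopeptidase activity had 33 falls (28%) and 3 rises (2.54%) among 118.

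Synapsis, the pairing of homologous chromosomes, had 6 rises (19.4%) and 2 falls (6.45%) among 31 genes. It had 1 rise without oxamate library B, 2 without oxamate library A or octyl-L2HG library A, and 4 without octyl-L2HG library B or C. Over all tested genes 4.11% rose and 15.4% fell. Terb1, which ties meiotic telomeres to the nuclear envelope, was at 116, 147 and 116 CPM with octyl-L2HG plus oxamate and at 79.1, 93.8 and 107 CPM with oxamate. Rec8, the meiotic cohesin subunit, was at 8.16, 7.04 and 14.5 CPM with octyl-L2HG plus oxamate and at 24.8, 18.7 and 18.5 CPM with oxamate, a fall. Phosphatidylinositol phosphorylation had 8 rises (19%) and 3 falls (7.14%) among 42 genes. It had no rise without octyl-L2HG library A and 4 without any 1 of the oxamate libraries. Condensed chromosome had 5 rises (16.7%) and 2 falls (6.67%) among 30. It had 1 rise without octyl-L2HG library A or oxamate library A or B and 2 without octyl-L2HG library B.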
